A study of Mus musculus with 7 samples.

Results

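The genes described here are 44 that cells use to copy DNA and to divide, 24 for DNA replication and 20 for mitosis. They were taken by symbol from a table of read counts for 21878 genes, and every symbol was found. The counts come from 7 libraries of bulk messenger RNA. The RNA is from tumours grown from B16F10, an established and heavily pigmented mouse melanoma cell line, in female C57BL/6J mice. In the control group (NC) there were 3 libraries, named NC_5, NC_6 and NC_10, whose mice are labelled control, and the sources used here do not say whether they received a vehicle. In the Zelnorm group there were 4 libraries, MBZ_9, MBZ_11, MBZ_13 and MBZ_15, from mice dosed by mouth with 1.25 mg/kg every 2 days. Zelnorm is tegaserod, an agonist of the serotonin 5-HT4 receptor, and the letters MBZ are the label's own name for that group, not explained there. All grafts came from the same cell line and no allele or transgene is named. Whether the libraries stand for 7 separate mice is not in the labels, and p-values therefore measure the spread among libraries only, part of which may be technical.

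A dividing cell loads the Mcm2 to Mcm7 ring onto replication origins in G1, turns it into a helicase with Cdc45 and the GINS proteins when S phase starts, and copies DNA with polymerases held by the sliding clamp Pcna. Mitosis is then driven by Cdk1 with cyclins A and B, by Aurora, Polo and checkpoint kinases, and by kinesins that build the spindle and carry chromosomes. Transcripts of the replication genes peak around the start of S phase through E2F sites, whereas those of the mitosis genes peak in G2 and M through the cell cycle homology region (CHR), bound by DREAM, B-Myb and Foxm1 complexes. In bulk tumour RNA, fewer cycling cells and less of these transcripts per cycling cell cannot be told apart.

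The promoters of both classes carry different short motifs, and 4 are shown, from 250 bases before to 50 bases after the transcription start site, because the replication and mitosis classes are compared below. Sequences are from RefSeq on GRCm38.p6, written 5′ to 3′ along the transcribed strand, with capitals marking the motif of the gene's class. For Mcm3, a subunit of the helicase ring, and Rfc3, a subunit of the clamp loader, the capitals mark an E2F motif, searched as TTTCGCGC or TTTGGCGC on both strands. For Ccnb2, cyclin B2, and Kif23, a kinesin of the central spindle, they mark the CHR motif, searched as TTTGAA on both strands. The windows are chr1:20820263-20820562 for Mcm3, chr5:151651159-151651458 for Rfc3, chr9:70421505-70421804 for Ccnb2 and chr9:61946750-61947049 for Kif23, all on the minus strand.
Mcm3: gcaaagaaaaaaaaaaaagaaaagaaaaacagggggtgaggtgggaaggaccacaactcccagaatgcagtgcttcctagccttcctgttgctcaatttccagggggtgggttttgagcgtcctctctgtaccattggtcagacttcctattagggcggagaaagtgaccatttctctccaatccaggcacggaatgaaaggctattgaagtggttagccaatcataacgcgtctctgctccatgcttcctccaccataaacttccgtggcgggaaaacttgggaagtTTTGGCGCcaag
Rfc3: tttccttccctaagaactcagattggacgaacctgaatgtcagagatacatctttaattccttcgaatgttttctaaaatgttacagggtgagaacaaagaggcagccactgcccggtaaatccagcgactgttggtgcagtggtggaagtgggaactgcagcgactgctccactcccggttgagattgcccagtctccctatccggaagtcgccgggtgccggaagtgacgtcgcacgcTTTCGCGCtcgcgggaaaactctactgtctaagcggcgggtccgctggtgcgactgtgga
Ccnb2: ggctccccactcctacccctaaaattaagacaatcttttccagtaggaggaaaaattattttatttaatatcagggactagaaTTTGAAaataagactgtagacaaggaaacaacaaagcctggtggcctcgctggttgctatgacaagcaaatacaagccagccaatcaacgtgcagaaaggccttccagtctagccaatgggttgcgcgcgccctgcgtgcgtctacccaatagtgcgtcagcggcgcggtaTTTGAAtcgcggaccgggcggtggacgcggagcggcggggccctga
Kif23: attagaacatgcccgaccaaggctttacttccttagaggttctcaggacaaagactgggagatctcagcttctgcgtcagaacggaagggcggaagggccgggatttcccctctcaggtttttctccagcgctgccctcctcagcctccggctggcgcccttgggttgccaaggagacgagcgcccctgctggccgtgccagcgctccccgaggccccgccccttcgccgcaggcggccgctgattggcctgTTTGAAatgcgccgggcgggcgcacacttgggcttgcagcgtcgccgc

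A promoter was at hand for 34 of the 44 genes, 18 replication and 16 mitosis. None was read for Aurkb, Ccna2, Ccne2, Foxm1, Gins1, Gins2, Mcm4, Pole, Rfc2 and Tpx2. The E2F motif was found in 7 of 18 replication promoters (38.9%), those of Mcm3, Mcm5, Mcm6, Mcm7, Rfc3, Cdt1 and Pola1, and in 1 of 16 mitosis promoters (6.25%), that of Cdk1. Of all 27025 genes with a promoter in the table, 0.929% held it in any of their promoters. The CHR motif showed the opposite distribution, in 12 of 16 mitosis promoters (75%) and in 2 of 18 replication promoters (11.1%), those of Mcm2 and Cdc45, against 20.2% of all genes with a promoter. Within 50 bases of the start site it lay in 11 of 16 mitosis promoters (68.8%), 1 of 18 replication promoters (5.56%) and 4.94% of all 32851 promoters. That last share was counted per promoter and not per gene. CCAAT, the box bound by NF-Y and searched on both strands, was in 15 of 16 mitosis promoters (93.8%), 12 of 18 replication promoters (66.7%) and 41.1% of all genes with a promoter. Motifs were counted wherever they occurred, overlaps between them included. A match of these letters is a description of the window and was not tested as a site. Only the exact letters were searched, so a window without a match may still hold a site with other letters.

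**Figure D1:**
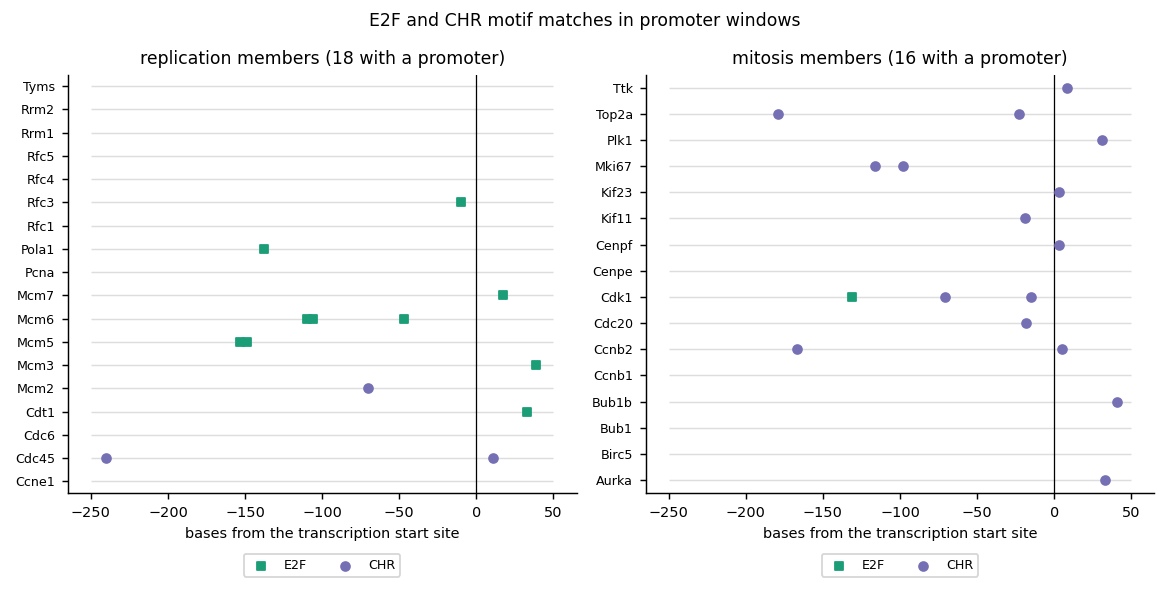
Position of each E2F motif (green squares) and CHR motif (purple circles) in bases from the transcription start site, for the 18 replication and 16 mitosis genes with a promoter in the table. CHR matches gather near the start site of mitosis genes (11 of 16 within 50 bases), and E2F matches lie almost all in replication genes (7 against 1).

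The libraries held 16903598 to 19666598 counts (NC 18079258 to 19547390), and values are given as CPM, counts scaled to a common library size after TMM. Between 68 and 11991 counts stood behind each of the 44 genes in each library, and all 44 passed the filter on low counts that left 12997 genes. Together they held 0.662% to 0.694% of the counts of a library. All 8 pigment cell markers (Mlana, Pmel, Tyr, Tyrp1, Dct, Mitf, Sox10 and Slc45a2) were detected in each library, with summed levels of 25975 to 29381 CPM in NC and 28121 to 30352 CPM in Zelnorm tumours. The 15 pan-leukocyte markers summed to 592 to 672 CPM in NC and 654 to 913 CPM in Zelnorm tumours, and 15 of 15 had a higher fitted value with Zelnorm. The 12 skeletal muscle markers summed to 5.92 to 45.2 CPM in NC and to 7.65 to 381 CPM in Zelnorm tumours, highest in MBZ_15 (381 CPM), MBZ_11 (144 CPM) and NC_5 (45.2 CPM), with Myh4 and Myh1 at 0 in 2 libraries each and Myh2 and Pvalb in 3. Fibroblast markers ran from 661 to 1742 CPM against 1186 to 2387 CPM, macrophage markers from 213 to 437 CPM against 406 to 596 CPM, lymphocyte markers from 5.61 to 8.29 CPM against 8.22 to 19.2 CPM and endothelial markers from 153 to 261 CPM against 179 to 217 CPM. The part of these other cells in the values below was not tested beyond the covariate fits given with the alternatives.

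No replication or mitosis gene passed the adjusted threshold of 0.05 between Zelnorm and NC tumours (edgeR's quasi-likelihood test, Benjamini-Hochberg over all 12997 genes). The smallest adjusted p was 0.428, for Tyms. Over all genes tested, 4 were called (0.0308%). At an unadjusted p under 0.05 stood 1 of the 44, Tyms, which was lower. Of all 12997 genes, 10.3% stood there in either direction, 439 genes lower and 902 higher. DESeq2 called 0 of the 44 (2 at an unadjusted p under 0.05, Tpx2 and Tyms) and 1.72% of the genes it gave an adjusted p. Limma voom also called 0 (1 at an unadjusted p under 0.05) and 0.0231% of all genes.

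The differences were small in both directions. Fitted levels with Zelnorm differed from NC by -8.80% (Tyms) to 7.33% (Cdc6). The 95% interval lay inside a change of 25% either way for 42 of 44 genes and inside 15% for 33 of 44. The 2 widest intervals belonged to Ccne2 (-29.7% to 21.4%) and Cenpe (-17.8% to 35.6%). The median standard error of a log2 fold change was 0.06, with a range of 0.05 to 0.18.

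**Figure D2:**
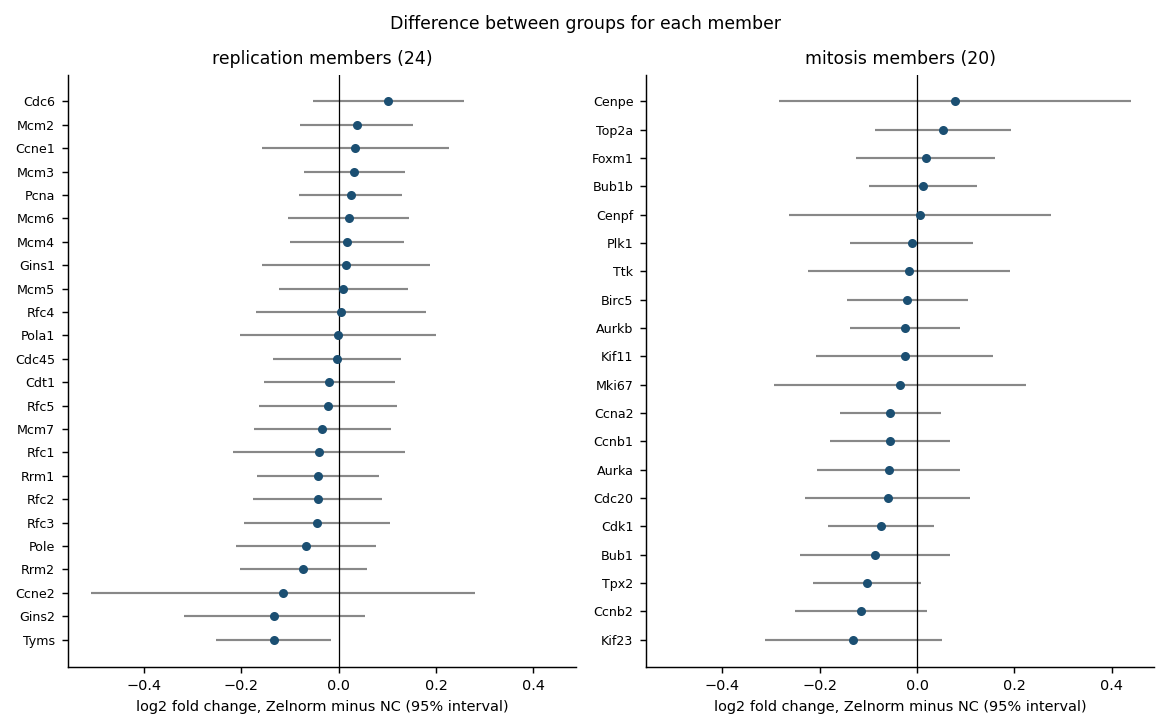
Log2 fold change of Zelnorm over NC (points) with its 95% interval (bars) from the edgeR fit, for 24 replication genes (left) and 20 mitosis genes (right), each sorted by value. Points lie between -0.13 (Tyms) and 0.10 (Cdc6), and the interval of Tyms alone lies wholly below 0.

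A fitted value below 0 was found for 14 of 24 replication genes (58.3%) and 15 of 20 mitosis genes (75%), in all 29 of 44 (65.9%), against 49.8% of all genes tested. Lower replication genes numbered 10 of 24 with the leukocyte level as a covariate, without NC_5, or without the 3 muscle-rich libraries. They numbered 12 of 24 with the stricter filter and 18 of 24 without NC_10, so no direction held for that class. Lower mitosis genes numbered 11 of 20 with the leukocyte level as a covariate. Their number was 13 of 20 with the muscle level as a covariate or without MBZ_9, and 17 of 20 without MBZ_13 or without MBZ_15. The leukocyte level, a mean log2 CPM of the pan-leukocyte markers, was 3.74 to 4.19 in NC and 4.16 to 4.86 in Zelnorm libraries. A fit with that covariate can therefore hardly tell it apart from the treatment. The median log2 fold change was -0.01 for replication, -0.03 for mitosis, -0.02 for all 44 and 0.00 for all genes tested. In 5 of 44 genes (11.4%) every Zelnorm library lay below every NC library, namely Tyms, Gins2, Tpx2, Ccnb2 and Ccna2, against 4.27% of all genes. In 0 of 44 did every Zelnorm library lie above every NC library, against 5.33% of all genes. These shares describe a chosen list, and the members' fits are not independent of one another.

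Among replication genes, the nucleotide supply enzymes came out lower in 3 of 3 cases, against 49.8% of all genes tested, with a median log2 fold change of -0.07. Tyms, thymidylate synthase, which makes the thymidine nucleotide for DNA (chr5:30038546-30073645 on GRCm38), stood at 99.3, 101 and 96.5 CPM in NC_5, NC_6 and NC_10 and at 91.5, 86.3, 93.0 and 90.4 CPM in MBZ_9, MBZ_11, MBZ_13 and MBZ_15. The highest Zelnorm library, MBZ_13, was thus below the lowest NC library, NC_10. The means were 99.0 ± 2.34 CPM (SD, n = 3) and 90.3 ± 2.85 CPM (SD, n = 4). The log2 fold change was -0.13 ± 0.05 (SE), with an edgeR adjusted p of 0.428 and a 95% interval of -15.97% to -1.02%. Tyms, Pcna, Ccnb1 and Ccnb2 have pseudogenes in the reference gene table, with which reads of these 4 genes could have been shared in the counting. Rrm2, the small ribonucleotide reductase subunit that rises in S phase (chr12:24708254-24714146), was at 374, 396 and 359 CPM in NC and 380, 360, 358 and 334 CPM in Zelnorm libraries, in the same library order. The groups overlapped, with MBZ_15 the lowest, and the log2 fold change was -0.07 ± 0.06 (SE, edgeR adjusted p = 0.735). Rrm1, the large subunit of the same enzyme (chr7:102441695-102469771), was at 486, 495 and 453 CPM against 490, 462, 439 and 468 CPM, also overlapping (-0.04 ± 0.06, edgeR adjusted p = 0.853).

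The genes of the helicase ring differed little between the groups. Fitted values of 5 of the 6 Mcm genes were slightly higher with Zelnorm, Mcm7 being the exception, and the median log2 fold change was 0.02. Those directions depended on single libraries. Without NC_10, the fitted values of Mcm4 (-0.002), Mcm5 (-0.03) and Mcm6 (-0.03) were also below 0. Mcm2 averaged 584 ± 13.6 CPM in NC and 599 ± 24.9 CPM with Zelnorm, and Mcm3 246 ± 3.38 and 252 ± 5.98 CPM. Mcm3 varied least of all 44 genes over the 7 libraries, with a coefficient of variation of 2.22%. Mcm4 averaged 130 ± 6.73 and 131 ± 1.51 CPM, Mcm5 281 ± 16.02 and 282 ± 13.9 CPM, Mcm6 364 ± 20.1 and 369 ± 13.4 CPM, and Mcm7 218 ± 19.3 and 213 ± 6.31 CPM. The 6 proteins assemble in equal numbers, but their transcripts were not equally abundant. Per kilobase of the longest coding transcript, levels over the 7 libraries were 175.9 CPM for Mcm2, 84.3 for Mcm6, 83.3 for Mcm5, 82.2 for Mcm3, 72.7 for Mcm7 and 36.4 for Mcm4. That order of Mcm2 at the top and Mcm4 at the bottom was the same in the means of both groups (173 and 36.1 CPM per kilobase in NC, 178 and 36.6 with Zelnorm), while Mcm6, Mcm5 and Mcm3 differed by less than the spread of Mcm6 and Mcm5 between libraries.

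Origin licensing and helicase activation held genes with fitted values on both sides of 0. Cdc6, which loads the Mcm ring at origins (chr11:98907709-98923942), was at 51.8, 61.0 and 55.8 CPM in NC_5, NC_6 and NC_10 and at 63.5, 57.4, 59.8 and 60.6 CPM in MBZ_9, MBZ_11, MBZ_13 and MBZ_15. NC_6 lay inside the Zelnorm range, and the log2 fold change of 0.10 ± 0.07 (SE) had an edgeR adjusted p of 0.673. Its partner Cdt1 averaged 84.6 ± 3.23 CPM in NC and 83.5 ± 4.10 CPM with Zelnorm. Gins2, a subunit of the GINS complex that activates the helicase (chr8:120581266-120589075), was at 21.7, 19.4 and 18.4 CPM against 17.89, 18.30, 17.95 and 18.18 CPM in the same order. Its groups did not overlap, but NC_10 and MBZ_11 were 18.4 and 18.3 CPM, and NC_5 alone stood well above the rest (log2 fold change -0.13 ± 0.08, edgeR adjusted p = 0.637). Gins1, of the same complex, averaged 22.4 ± 0.709 and 22.6 ± 1.36 CPM, and Cdc45, the third part of the active helicase, 54.7 ± 2.15 and 54.6 ± 1.83 CPM.

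The groups overlapped for each gene of the polymerases, the clamp and the clamp loader. Pole, the catalytic subunit of leading-strand polymerase epsilon (chr5:110286319-110337468), was at 59.1, 50.7 and 55.5 CPM in NC and 53.2, 52.1, 52.2 and 53.1 CPM with Zelnorm, so the Zelnorm libraries lay inside the NC range (-0.07 ± 0.06, edgeR adjusted p = 0.796). Pola1, which with primase starts new strands, averaged 54.6 ± 2.10 and 54.6 ± 6.56 CPM. Pcna averaged 323 ± 10.2 CPM in NC and 328 ± 6.04 CPM with Zelnorm. The 5 subunits of replication factor C, which opens the clamp, had 4 lower fitted values and 1 higher. Their means were 96.8 ± 2.04 and 94.1 ± 9.82 CPM for Rfc1, 142 ± 11.3 and 138 ± 0.797 CPM for Rfc2, 46.45 ± 3.02 and 45.04 ± 2.02 CPM for Rfc3, 32.9 ± 0.947 and 33.0 ± 2.80 CPM for Rfc4, and 89.2 ± 7.22 and 87.9 ± 1.86 CPM for Rfc5. The E cyclins, which switch on Cdk2 at the start of S phase, were far apart in level, with Ccne1 at 60.2 ± 5.34 and 61.7 ± 5.71 CPM and Ccne2 at 5.44 ± 0.757 and 5.02 ± 0.683 CPM. Ccne2 shares 5622 bases of its span with Ints8, and Ccna2 863 bases with Exosc9, so the counts of this pair of cyclins are uncertain where the counting did not use strand.

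In the mitosis class, Cdk1 and its cyclins had lower fitted values in 4 of 4 genes (median log2 fold change -0.06), 2 of them without overlap. Of all genes tested, 49.8% had a lower fitted value and 4.27% had every Zelnorm library below every NC library. With the leukocyte level as a covariate, the fitted value of Ccnb1 was above 0 (0.01). Ccnb2 (chr9:70407689-70421554) was at 115.0, 108.3 and 107.8 CPM in NC_5, NC_6 and NC_10 and at 94.8, 99.5, 106.3 and 107.1 CPM in MBZ_9, MBZ_11, MBZ_13 and MBZ_15. MBZ_9 and MBZ_11 were low, whereas MBZ_13 and MBZ_15 were just below the lowest control library, and the log2 fold change was -0.11 ± 0.06 (SE, edgeR adjusted p = 0.562). Cyclin A2, Ccna2, which acts in S phase and early mitosis (chr3:36564865-36573038), was at 169.2, 172.6 and 172.9 CPM against 165.6, 161.1, 164.9 and 169.0 CPM. The groups were thus separated by the gap between NC_5 and MBZ_15 only (-0.05 ± 0.05, edgeR adjusted p = 0.755). Cdk1, the kinase itself (chr10:69335146-69352912), was at 218.3, 214.4 and 216.5 CPM against 201.7, 200.4, 203.9 and 216.3 CPM. Here 3 Zelnorm libraries were lower and MBZ_15 sat among the controls (-0.07 ± 0.05, edgeR adjusted p = 0.661). Ccnb1, cyclin B1, averaged 160 ± 7.17 and 154 ± 6.00 CPM.

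Tpx2, Cdc20 and Birc5 had lower fitted values in 3 of 3 cases, against 49.8% of all genes tested, with a median of -0.06. Tpx2, which activates Aurora A on spindle microtubules (chr2:152847964-152895321), was at 194, 201 and 191 CPM in NC_5, NC_6 and NC_10 and 179, 176, 185 and 188 CPM in MBZ_9, MBZ_11, MBZ_13 and MBZ_15. Its groups did not overlap, and the log2 fold change was -0.10 ± 0.05 (SE, edgeR adjusted p = 0.517). Cdc20, which activates the anaphase-promoting complex, averaged 110 ± 6.76 and 106 ± 9.13 CPM, and Birc5 (survivin, of the chromosomal passenger complex) 109 ± 1.08 and 108 ± 5.39 CPM. Of 6 mitotic kinases, 5 had a lower fitted value (83.3%, against 49.8% of all genes tested), with a median of -0.02. Bub1, a spindle checkpoint kinase (chr2:127800197-127831859), was at 99.6, 116.8 and 101.5 CPM against 99.25, 95.05, 99.04 and 106.0 CPM, overlapping through MBZ_15 and with NC_6 standing above the rest (-0.09 ± 0.07, edgeR adjusted p = 0.732). The centrosomal kinase Aurka averaged 108 ± 5.85 and 104 ± 6.57 CPM, and the passenger kinase Aurkb 114 ± 2.27 and 112 ± 3.24 CPM. Plk1, which acts from mitotic entry to cytokinesis, averaged 162 ± 9.46 and 161 ± 5.50 CPM. The checkpoint genes Bub1b and Ttk averaged 147 ± 5.07 and 148 ± 2.81 CPM, and 23.9 ± 1.09 and 23.6 ± 2.47 CPM.

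Kif23, the kinesin whose promoter is shown above (chr9:61917277-61946810), was at 62.4, 64.5 and 70.3 CPM in NC_5, NC_6 and NC_10 and 52.9, 59.3, 66.5 and 61.4 CPM in MBZ_9, MBZ_11, MBZ_13 and MBZ_15. MBZ_13 overlapped the controls and MBZ_9 was the lowest (-0.13 ± 0.08, edgeR adjusted p = 0.633). Kif11, the kinesin that pushes spindle poles apart, averaged 109 ± 8.68 and 107 ± 9.65 CPM. Top2a, the topoisomerase that untangles sister chromatids, averaged 525 ± 18.8 CPM in NC and 545 ± 37.3 CPM with Zelnorm. Foxm1, a transcription factor of the G2 and M genes, averaged 170 ± 10.5 and 172 ± 10.02 CPM.

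**Figure D3:**
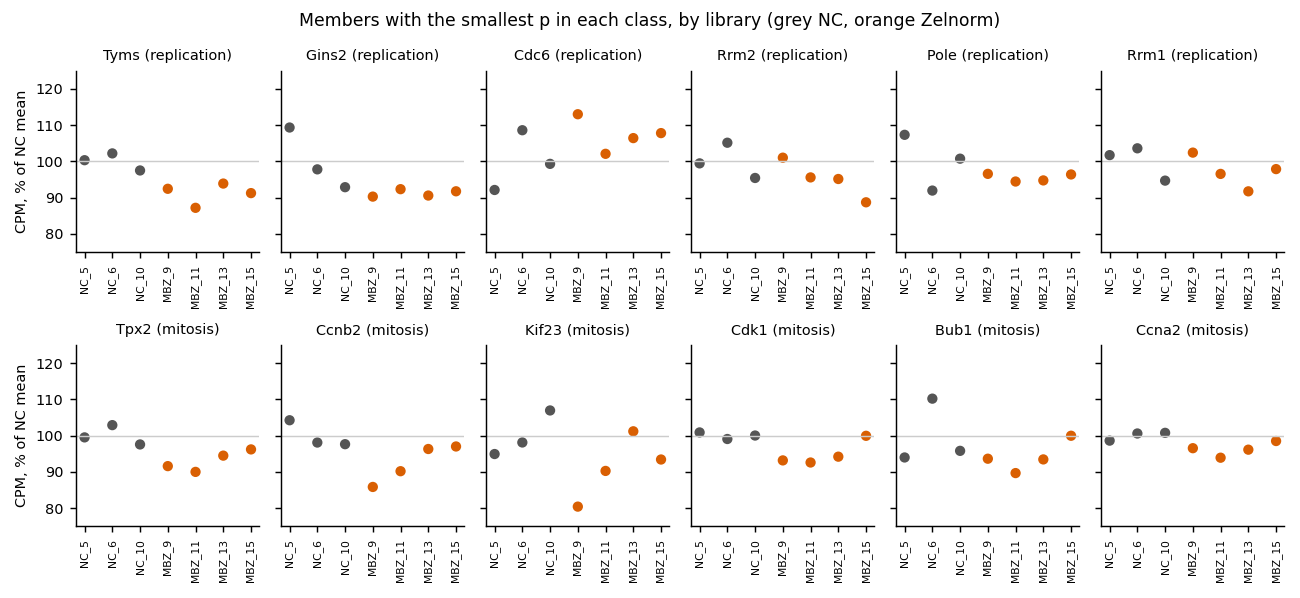
CPM of 12 genes in each of the 7 libraries as a percent of that gene's NC mean (grey NC, orange Zelnorm), with the 6 replication genes of smallest p above and the 6 mitosis genes below. Tyms, Gins2, Tpx2, Ccnb2 and Ccna2 show no overlap between groups. The vertical axis does not start at 0.

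The spread between libraries was larger for a few mitosis genes than any group difference. Over the 7 libraries the coefficient of variation ran from 2.22% to 18.6%, with a median of 5.32%. Cenpe, a kinesin that moves chromosomes to the spindle equator, was at 37.3, 51.2 and 52.4 CPM in NC_5, NC_6 and NC_10 and 39.2, 43.2, 62.6 and 53.3 CPM in MBZ_9, MBZ_11, MBZ_13 and MBZ_15. That is a coefficient of variation of 18.6%, where counting error alone gives 3.36%. The kinetochore protein Cenpf was at 43.0, 55.6 and 54.8 CPM against 44.9, 45.3, 59.9 and 55.0 CPM (12.9%, counting error 3.27%). Mki67, the Ki-67 antigen used to score dividing cells, was at 206, 219 and 250 CPM against 177, 204, 248 and 250 CPM (12.8%, counting error 1.57%). Group means were 47.0 ± 8.44 and 49.6 ± 10.5 CPM for Cenpe, 51.1 ± 7.07 and 51.3 ± 7.38 CPM for Cenpf, and 225 ± 22.3 and 220 ± 35.5 CPM for Mki67. These 3 genes, singled out after their values were seen, were low in NC_5, MBZ_9 and MBZ_11 and high in NC_10, MBZ_13 and MBZ_15, so the split ran within both groups. Ccne2 varied by 13.2%, where counting error alone gives 10.2%.

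Those 3 genes also have the longest transcripts of the mitosis class, at 7910, 11130 and 10061 bases. Over the 609 genes tested that averaged 100 counts or more and have a transcript over 8 kb, the median deviation from the gene's mean (log2) was -0.08 in NC_5 and -0.04 in MBZ_11, and 0.04 in MBZ_13 and 0.03 in MBZ_15. NC_6 and NC_10 lay at 0.04 and 0.01, and MBZ_9, in which the 3 genes were low, at 0.01. Pole, at 7163 bases the longest replication transcript, was highest in NC_5. The part of transcript length in these values was not tested.

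**Figure D4:**
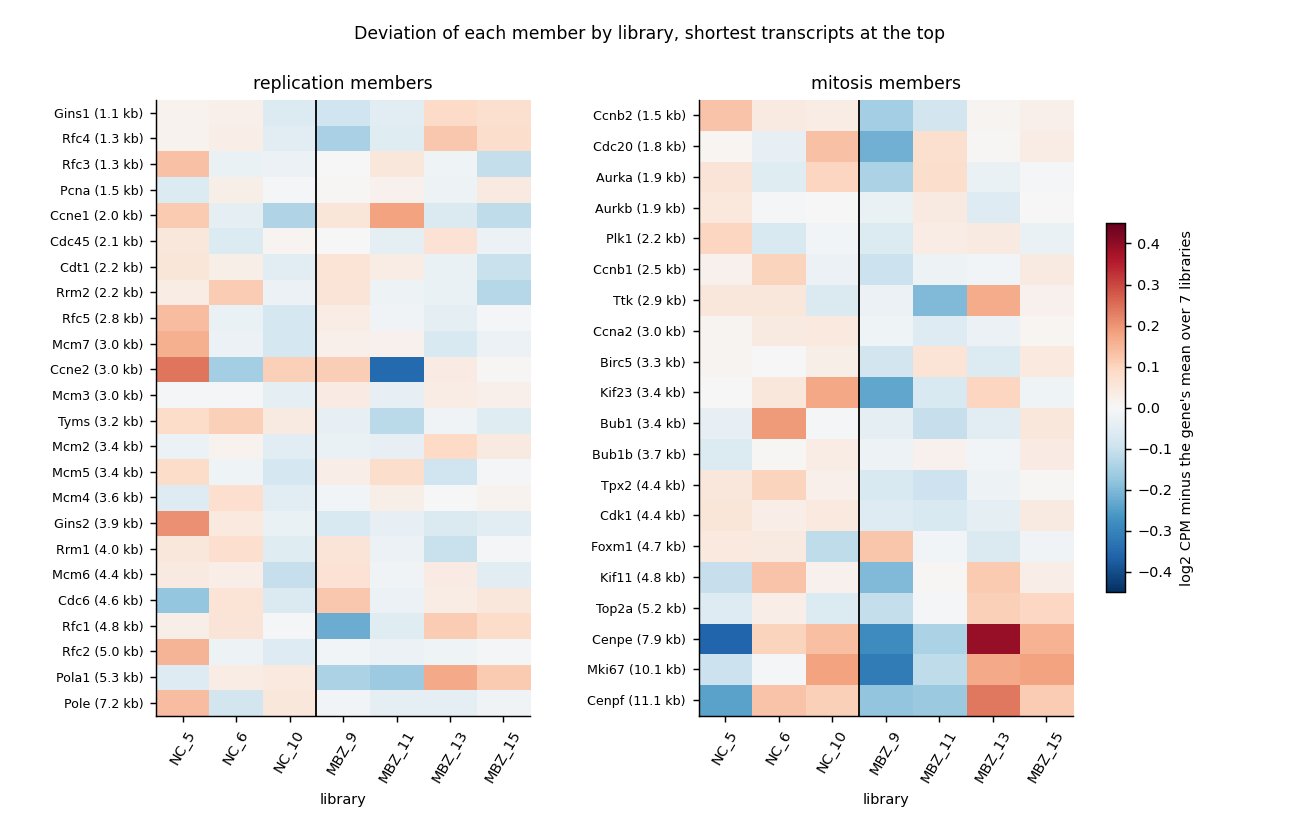
Deviation of log2 CPM from the gene's mean over 7 libraries (colour), for 24 replication genes (left) and 20 mitosis genes (right) sorted by transcript length, with a black line between NC and Zelnorm libraries. Cenpe, Mki67 and Cenpf at the lower right are low in NC_5, MBZ_9 and MBZ_11 and high in NC_10, MBZ_13 and MBZ_15.

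Levels of the classes were then compared per library. The mean log2 CPM of the 24 replication genes was 6.65, 6.60 and 6.56 in NC_5, NC_6 and NC_10 and 6.59, 6.56, 6.60 and 6.59 in MBZ_9, MBZ_11, MBZ_13 and MBZ_15. Group means were 6.60 ± 0.0446 (SD, n = 3) and 6.59 ± 0.0156 (SD, n = 4), and the Zelnorm libraries lay inside the NC range. That of the 20 mitosis genes was 6.87, 6.93 and 6.93 against 6.78, 6.85, 6.94 and 6.93, with means of 6.91 ± 0.0344 and 6.87 ± 0.0750. MBZ_11 was among the 2 lowest libraries in both classes, whereas MBZ_9 was the lowest for mitosis and NC_10 for replication. By single genes, MBZ_9 was the lowest library for 9 of 20 mitosis and 4 of 24 replication genes, NC_10 for 1 and 7, and MBZ_11 for 5 and 3. MBZ_13 was the highest library for 4 mitosis and 6 replication genes, NC_5 for 4 and 8, and NC_6 for 4 and 4. Replication minus mitosis was -0.22, -0.33 and -0.37 in NC and -0.19, -0.28, -0.33 and -0.34 with Zelnorm. Those group means, -0.30 ± 0.0757 and -0.29 ± 0.0706, differed by 0.02, less than the SD of either group. That difference became 0.06 without NC_5 and 0.08 without the 3 libraries richest in muscle transcripts, and its sign turned without NC_10 (-0.01), without MBZ_9 (-0.02) and with the median over genes in place of the mean (-0.01). In summed CPM the replication genes held 3777 to 3997 CPM in NC and 3874 to 3945 CPM with Zelnorm, and the mitosis genes 2878 to 2967 and 2704 to 2991 CPM.

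**Figure D5:**
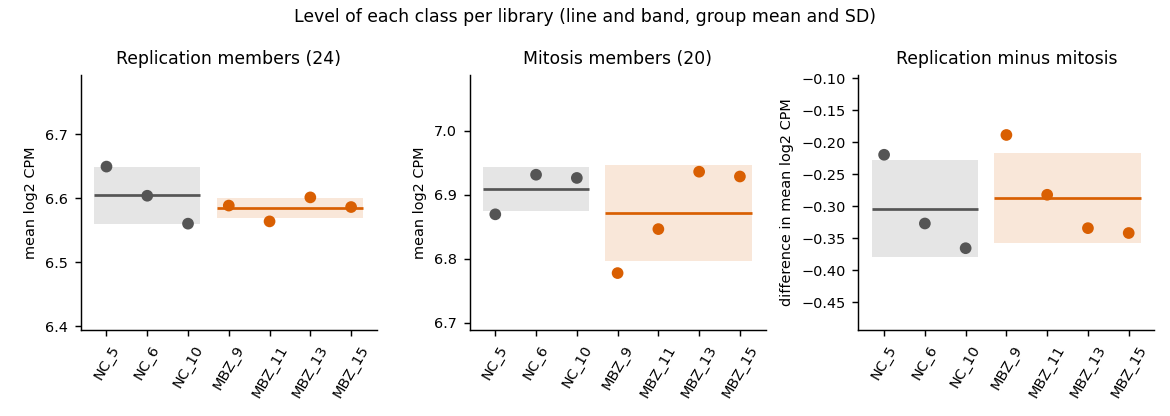
Mean log2 CPM of the replication genes, of the mitosis genes and their difference in each library (points, grey NC and orange Zelnorm), with group mean (line) and SD (band). The ranges of the groups overlap in each panel, and MBZ_9 has the lowest mitosis level at 6.78.

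Grouped by promoter motif, the 34 members with a promoter gave similar medians. The groups share Cdk1, and the CHR group also holds Mcm2 and Cdc45 of the replication class. Tpx2, Gins2 and Ccna2, whose NC and Zelnorm libraries did not overlap, had no promoter and are in neither. The 8 genes with an E2F motif had a median log2 fold change of -0.01, with 5 lower and 3 higher. Of the 14 with a CHR motif, 10 were lower and 4 higher, with a median of -0.02. Lower genes were thus 62.5% and 71.4% of these groups, against 49.8% of all genes tested. Adjusted p by edgeR was above 0.05 for each of them.

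Further genes of both processes, from lists that do not share members with the 44, were read in the same fit. Of 48 other replication genes, 30 had a lower (62.5%, against 49.8% of all genes tested) and 18 a higher fitted value (median -0.03). Of these genes, 0 passed the adjusted threshold in edgeR and 0 had an unadjusted p under 0.05. The smallest p there belonged to the fork protection gene Tipin at 47.6 ± 1.91 CPM in NC and 43.0 ± 2.49 CPM with Zelnorm (-0.15 ± 0.07, edgeR adjusted p = 0.492). Next came the origin recognition subunit Orc3 (-0.15), Slbp, which binds histone mRNA (0.11), and the exonuclease Exo1 (0.09), the latter pair with every Zelnorm library above every NC library. That was so for 2 of the 48 (4.17%, against 5.33% of all genes). In 0 of the 48 did every Zelnorm library lie below every NC library, against 4.27% of all genes. Of 60 other mitosis genes, 47 were lower (78.3%, against 49.8% of all genes tested) and 13 higher, with a median of -0.05. Counts under the alternatives are not given here for these lists. None passed the adjusted threshold in edgeR, and 4 of 60 had an unadjusted p under 0.05, all lower. Of all 12997 genes tested, 10.3% had such a p in either direction, 439 genes lower and 902 higher. Every Zelnorm library lay below every NC library in 7 of the 60 (11.7%, against 4.27% of all genes) and above in 1 (1.67%, against 5.33%). Kif22, a kinesin on chromosome arms, was at 84.6, 77.5 and 78.6 CPM in NC and 70.2, 71.5, 73.2 and 71.4 CPM with Zelnorm (-0.17 ± 0.06, edgeR adjusted p = 0.339). Its groups did not overlap, as was the case for the Cdk1-activating phosphatase Cdc25b (-0.15), the chromokinesin Kif4 (-0.15) and the ubiquitin-conjugating enzyme Ube2s (-0.13).

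Lists of cell cycle regulators were also without a call. The list of G1 cyclins and CDK inhibitors also held Btg1 and Ccng1, which are neither. Of its 17 tested genes, 9 were higher and 8 lower. An unadjusted p under 0.05 was found for 4 of them (2 higher, 2 lower), against 10.3% of all genes. Every Zelnorm library lay above every NC library in 1 of the 17 (5.88%, against 5.33% of all genes) and below in 2 (11.8%, against 4.27%). The antiproliferative gene Btg1 had the smallest p. It was at 30.2, 31.0 and 31.5 CPM in NC and 40.2, 40.0, 35.6 and 34.6 CPM with Zelnorm, without overlap (0.28 ± 0.08, edgeR adjusted p = 0.216). Cyclin G1, Ccng1, a p53 target, averaged 154 ± 11.4 and 133 ± 8.25 CPM, without overlap (-0.20 ± 0.07, edgeR adjusted p = 0.334), the INK4 inhibitor Cdkn2c 95.8 ± 7.04 and 110 ± 8.92 CPM (edgeR adjusted p = 0.428), and the p21 gene Cdkn1a 230 ± 29.1 and 193 ± 25.6 CPM (edgeR adjusted p = 0.476). Cdkn2a, with 1 to 6 counts per library, was not tested. Of 20 tested E2F and DREAM regulators, 12 were lower (60%, against 49.8% of all genes tested) and 8 higher. None passed the adjusted threshold in edgeR or had an unadjusted p under 0.05, and the groups overlapped for each of the 20. The smallest p were those of Mybl2 (B-Myb, 0.12), the pocket protein gene Rbl1 (-0.12), Rbbp4 (-0.09) and Lin54 (0.11), the last being the subunit that binds CHR, with edgeR adjusted p from 0.598 to 0.669. Mycn had 2 to 8 counts and was not tested.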

How the data were processed

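The authors deposited raw read counts per gene. Trimmomatic, HISAT2, Cufflinks, HTSeq and DESeq are named in the submitters' processing notes, as are the builds GRCh38 and GRCm38. Not given in the sources used here are versions, roles, filters and the strand setting of the counting, although the TruSeq Stranded mRNA kit, per the labels, keeps strand. Overlapping genes can therefore share reads where their exons overlap. By whole gene span, 15 of the 44 genes overlap another gene, small RNAs and pseudogenes included. Overlap of exons is not given here, so fewer of them may be affected. In addition, 4 of the 44 have a pseudogene of their name.

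Here, counts were filtered with filterByExpr, scaled by TMM (factors 0.986 to 1.01) and tested on all 7 libraries by edgeR's quasi-likelihood fit (edgeR 4.0.16, R 4.3.3), whose p-values were adjusted by Benjamini-Hochberg (threshold 0.05). Its common coefficient of biological variation was 0.111. Standard errors were derived from the F statistic, and class levels use log2 CPM with a prior count of 2. A detection floor of 3 counts corresponds to 0.152 to 0.178 CPM and covers counting error only. Gene positions and names come from the GRCm38.p6 gene table, matched by GeneID for 21727 genes, with 27 symbols restored from dates. Alternatives were RLE and upper quartile scaling, no filter, a filter at 30 counts, DESeq2 1.42.0, limma voom 3.58.1, leukocyte and muscle levels as covariates, and libraries left out.

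The members and lists were chosen with earlier results of these data known. All members are named, with values for each library for the 6 of smallest p in each class and those whose groups do not overlap. From each other list the 4 genes of smallest p are named. Promoters are those of the 2 genes per class with the smallest p among holders of the class motif. Plots used matplotlib 3.10.9 (Python 3.11.15).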

Additional observations from a re-analysis of the deposited data

How the results depend on the processing

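None of the 44 genes passed the adjusted threshold under any of the 16 alternatives run. The number of genes called in the whole table moved from 4 to 34 with no filter and to 206 with DESeq2. It fell to 0 with the leukocyte level as a covariate (695 at an unadjusted p under 0.05) and to 0 without the 3 libraries richest in muscle transcripts (547), and leaving out 1 library gave 0 (without NC_5, 977 at an unadjusted p under 0.05) to 161 (without NC_10), with 21 without MBZ_15; the cause was not tested. The mitosis median log2 fold change was -0.0912 without the 3 muscle-rich libraries (MBZ_15, MBZ_11 and NC_5), and -0.06 to -0.02 with 1 library left out. The replication median was 0.01 and -0.04 to 0.01 in the same fits. With the leukocyte covariate the medians were 0.01 for replication and -0.01 for mitosis, and 14 of the 44 genes had the other sign, as did 15 without the muscle-rich libraries and 3 to 13 with 1 library left out. Since no gene was called, these are not changes of a call. The leukocyte level differed between the groups, so the fit with it can hardly tell that level apart from the treatment. No paired analysis was possible because the count columns do not show which replicate number of the titles they hold.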
